A study of Homo sapiens with 22 samples.

Results

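On the arrays, 697 transcript clusters had lower signal with a SPINK1 knockdown lentivirus than with an NT control lentivirus in both of 2 ovarian clear cell carcinoma lines, JHOC9 and JHOC5. A transcript cluster is the array's unit for one transcribed region. A cluster was included when its mean log2 signal on the SPINK1 knockdown arrays minus that on the NT arrays was -0.2 or less in each line, and when its NT mean was at least 5 on the log2 scale in each line. Of the 65526 clusters on the array, 29506 passed the NT minimum, called bright clusters from here on, so the 697 members make up 2.36% of the bright clusters and 1.06% of all. The members were picked on these differences, so their values with the SPINK1 virus are a description and carry no test.

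SPINK1 is a small secreted inhibitor of trypsin that protects the pancreas from its own protease and is also made by several tumour types, where the secreted protein has been described as a ligand of the EGF receptor. IL-6, the target of the second virus, is a cytokine that signals through its receptor and gp130 to the transcription factor STAT3, and ovarian clear cell carcinoma is known for high IL-6 production.

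The 22 arrays, each hybridised with biotin-labelled total RNA, fall into 6 groups. JHOC9 cells, kept in 20% serum, were infected with SPINK1 KD virus #9 (3 arrays), IL-6 KD virus #58 (3 arrays) or NT virus (5 arrays). JHOC5 cells, kept in 10% serum, had the same numbers of arrays with the same viruses. Each target had 1 virus, all cells were infected in 35 mm dishes, and line and serum cannot be told apart. The titles tie the NT arrays, replicates a to e, to Experiments A to E, and give each knockdown array a replicate letter with no experiment. Whether equal letters mark a shared experiment, and whether knockdown arrays stand for separate cultures, is not in the titles. Each p-value therefore rests on array-to-array spread that may be partly technical. The files give no gene name for a cluster, so SPINK1 and IL-6 themselves, cell markers and gene groups were not analysed here, and clusters are named by ID only. Array medians over all clusters lay between 4.78 and 4.95.

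The members were lower by a modest amount in JHOC9 and by more in JHOC5. Their median difference, SPINK1 KD minus NT, was -0.28 in JHOC9 and -0.69 in JHOC5 on the log2 scale, which is 17.7% and 37.9% less linear signal in JHOC9 and JHOC5. The interquartile range ran from -0.35 to -0.24 in JHOC9 and from -1.06 to -0.43 in JHOC5. Across all 65526 clusters the median difference was -0.00 in JHOC9 and 0.05 in JHOC5. The difference was larger in JHOC5 for 638 members and larger in JHOC9 for 59. A difference of at least 0.5 was reached by 45 members in JHOC9, by 467 in JHOC5 and by 41 in both. A signal at least 2-fold lower was reached by 1 member in JHOC9 and by 196 in JHOC5. The ratio of the JHOC9 to the JHOC5 difference had a median of 0.442 and ran from 0.138 to 2.55.

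**Figure D1:**
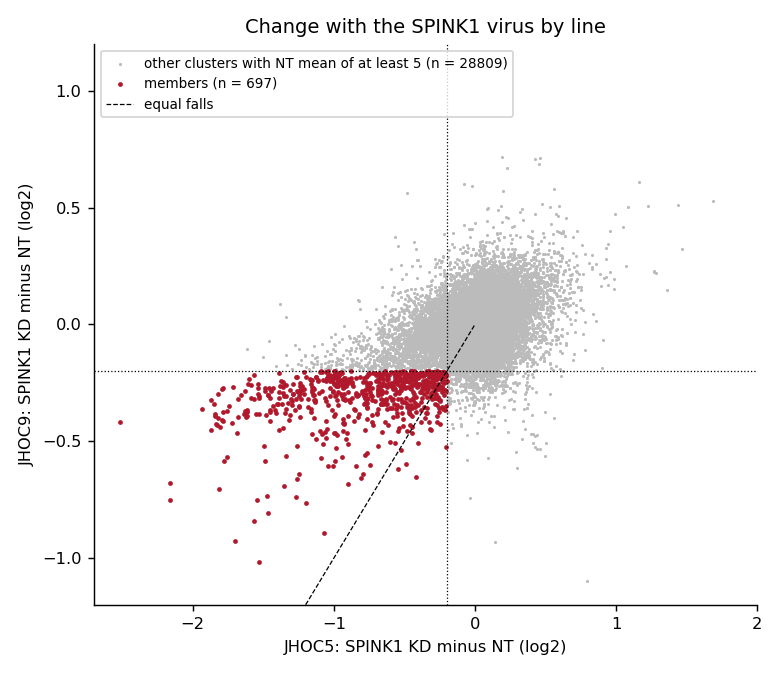
Difference between SPINK1 KD and NT means (log2) in JHOC5 on the x axis and in JHOC9 on the y axis, 1 point per bright cluster; red points are the 697 members, grey points the other 28809, dotted lines the limits of -0.2, and the dashed line equal differences. Most red points lie left of the dashed line, since 638 of 697 members were lowered more in JHOC5.

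Across the 697 members the differences in JHOC9 and JHOC5 had a Pearson's r of 0.356 and a Spearman's rho of 0.336. Both values are cut off at -0.2 by the choice, which lowers a correlation, so nothing is read from its size. The JHOC9 limit, rather than the JHOC5 limit, set the edge of the list. Within 0.02 of the limit there were 104 members inside and 102 other clusters outside in JHOC9, but 13 inside and 22 outside in JHOC5. The nearest values on each side of the limit were -0.2001 and -0.1999 in JHOC9, and -0.201 and -0.198 in JHOC5. For the NT minimum, the nearest lower NT means were 5.01 inside and 4.99 outside.

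The members' median lay below the NT arrays on each SPINK1 KD array, as their choice requires of the group means. Set against the NT mean of the line, the members' median was -0.28, -0.25 and -0.34 on the JHOC9 SPINK1 KD arrays a, b and c, and between -0.08 and 0.06 on the JHOC9 NT arrays. In JHOC5 it was -0.59, -0.75 and -0.77 on SPINK1 KD arrays c, d and e, and between -0.06 and 0.07 on the NT arrays. The bright clusters outside the set had medians between -0.02 and 0.04 on the JHOC9 SPINK1 KD arrays and between 0.02 and 0.08 on the JHOC5 ones. Taken singly, 514, 495 and 598 of the 697 members were at least 0.2 below the NT mean on the 3 JHOC9 SPINK1 KD arrays, against 20 to 86 on single JHOC9 NT arrays. The counts were 622, 659 and 676 on the JHOC5 SPINK1 KD arrays, against 9 to 66 on single JHOC5 NT arrays. All SPINK1 KD arrays lay below all NT arrays for 421 members in JHOC9 and for 598 in JHOC5, where 2.65% and 10.8% of the bright clusters did so. They did in both lines for 405 members, against 1.92% of the bright clusters. These counts come from the differences that chose the members, so nothing is read from them.

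**Figure D2:**
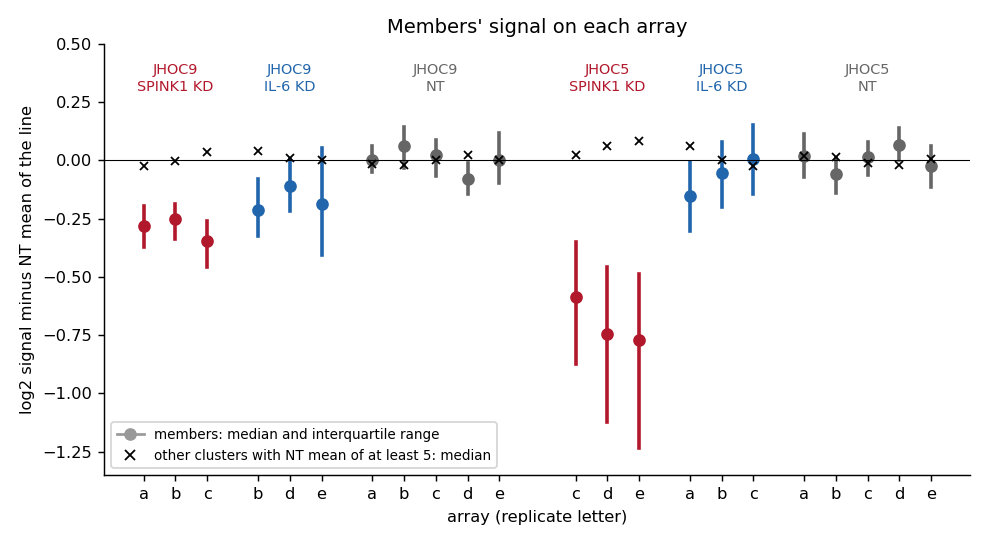
Members' log2 signal minus the NT mean of the line on each of the 22 arrays, with the median (dot) and the interquartile range (bar) over the 697 members, and crosses for the median of the other bright clusters; groups run SPINK1 KD, IL-6 KD, NT within each line. SPINK1 KD medians reach -0.34 in JHOC9 and -0.77 in JHOC5, and IL-6 KD medians run from -0.21 to 0.01.

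Membership depended on single arrays of JHOC9 more than on those of JHOC5. Leaving out 1 of the 22 arrays gave lists of 622 to 835 clusters, with both ends set by JHOC9 SPINK1 KD arrays. Without replicate c the list held 622 clusters, 537 of them among the 697, and without replicate a it held 835, of which 621 were. Leaving out a JHOC5 SPINK1 KD or NT array kept between 653 and 689 of the members. The rule does not use the IL-6 KD arrays, so leaving out one of them could not change the list. In all, 383 members met the rule under each of the 22 removals and 314 lost it in at least 1. Clusters higher by 0.2 or more in both lines, the same rule with the sign turned, numbered 425, or 1.44% of the bright clusters.

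TC01002412.hg.1, with chromosome code 1, had the largest mean difference over both lines and also the largest gap between them. In JHOC9 its log2 signal was 5.94, 6.08 and 6.10 on the SPINK1 KD arrays, against 6.32, 6.47, 6.41, 6.63 and 6.46 on the NT arrays. In JHOC5 it was 6.92, 6.87 and 6.83 on the SPINK1 KD arrays, against 9.24, 9.52, 9.25, 8.97 and 9.94 on the NT arrays. The groups did not overlap in either line, and the JHOC5 SPINK1 KD arrays still lay above every JHOC9 array. The differences were -0.42 in JHOC9 and -2.51 in JHOC5. Its IL-6 KD arrays read 6.54, 6.39 and 6.64 in JHOC9 and 8.94, 9.33 and 8.69 in JHOC5, within or next to the range of the NT arrays of each line. The IL-6 KD difference from NT was 0.06 ± 0.15 in JHOC9 and -0.40 ± 0.15 in JHOC5 (SE), with limma adjusted p of 0.900 and 0.356.

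TC04002654.hg.1, with chromosome code 4, came next by mean difference. In JHOC9 it had 7.23, 7.02 and 6.68 on the SPINK1 KD arrays, against 7.88, 7.87, 7.87, 7.33 and 7.70 on the NT arrays. In JHOC5 it had 6.38, 5.87 and 5.62 on the SPINK1 KD arrays, against 8.15, 7.84, 8.27, 8.41 and 7.94 on the NT arrays. The groups were apart in both lines, although in JHOC9 NT array d lay only just above the highest SPINK1 KD array. The differences were -0.75 in JHOC9 and -2.16 in JHOC5. With the IL-6 virus the cluster read 7.53, 7.46 and 7.28 in JHOC9 and 7.89, 8.15 and 8.20 in JHOC5, each overlapping the NT arrays. At the other end, the member whose JHOC9 difference most exceeded its JHOC5 difference had -0.53 in JHOC9 and -0.21 in JHOC5. It was dim and scattered, with 5.08, 4.93 and 4.12 on the JHOC9 SPINK1 KD arrays against 4.88 to 5.57 on the NT arrays.

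The members were brighter than the bright clusters as a whole. Their median NT mean was 7.18 in JHOC9 and 7.48 in JHOC5, while the other bright clusters had 6.48 and 6.43. On the IL-6 KD arrays, which the choice did not use, the medians were 7.03 and 7.42 for the members and 6.51 and 6.43 for the others. By the average of both NT means, the members' share of the bright clusters was 0.838% between 5 and 6, 2.12% between 6 and 7, 3.51% between 7 and 8, 5.02% between 8 and 9, 4.87% between 9 and 10 and 2.57% above 10. The median JHOC5 difference was -0.48 in the dimmest of these classes and -0.94 between 9 and 10. In JHOC9, where the members' interquartile range of -0.35 to -0.24 lay close to the limit of -0.2, the class medians stayed between -0.30 and -0.26. With the SPINK1 virus, 20 members in JHOC9 and 28 in JHOC5 had a group mean below 5.

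The members' SD between arrays of one group was not the same relative to all bright clusters in each group. The JHOC9 SPINK1 KD arrays had a median SD of 0.0977 for the members and 0.115 for the bright clusters. On the JHOC9 IL-6 KD arrays the members' median SD was 0.162, against 0.123 for all bright clusters. On the JHOC5 IL-6 KD arrays it was 0.138 against 0.136. The JHOC5 SPINK1 KD arrays had a median SD of 0.169 for the members and 0.0926 for the bright clusters, with replicate c less shifted than d and e.

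The next comparison asked whether the IL-6 virus changed the same clusters. These contrasts use the same NT arrays as the choice of the members. A cluster whose NT arrays read high enters the set more readily and also has a lower IL-6 KD minus NT difference. The choice thus pushes the members' IL-6 KD differences down, by an amount that was not tested. Each comparison's own values are given and their likeness is not counted. The members' median IL-6 KD minus NT difference was -0.14 in JHOC9 and -0.06 in JHOC5. By array, the members' median minus the NT mean was -0.21, -0.11 and -0.19 on JHOC9 arrays b, d and e. On JHOC5 arrays a, b and c it was -0.15, -0.05 and 0.01, so the JHOC5 shift was uneven. The other bright clusters had 0.04, 0.01 and 0.00 on the JHOC9 arrays, and 0.06, 0.00 and -0.02 on the JHOC5 ones. Over all clusters the median IL-6 KD minus NT difference was 0.03 in JHOC9 and 0.02 in JHOC5, and over the bright clusters 0.02 and 0.02. The members' interquartile range ran from -0.28 to -0.04 in JHOC9 and from -0.18 to 0.04 in JHOC5.

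In JHOC9, 10 members were lower with the IL-6 virus and 0 higher by limma's test at an adjusted p of 0.05, where 0.201% of all clusters were called lower and 0.0412% higher. The 10 are 1.43% of the members, and of the bright clusters 0.417% were called lower and 0.0339% higher. Their differences ran from -1.10 to -0.44. Before adjustment, limma's p was under 0.05 for 256 members lower and 1 higher, 36.9% of the members in all, against 10.8% of all clusters and 14.6% of the bright ones. Among bright clusters the JHOC9 IL-6 KD difference also moved with signal level. Its median was 0.07 for NT means between 5 and 6 and -0.09 between 9 and 10, where the members had -0.10 and -0.18. The NT arrays that chose the members also enter this contrast, which favours members lower over members higher. The parts of this choice and of signal level in the members' values were not tested. The 10 calls were 4, 20 and 2 without JHOC9 IL-6 KD replicates b, d and e, 5 without NT replicate a or b, and 22 and 18 without JHOC5 SPINK1 KD replicates c and e, which enter only the estimate of the spread. With the 2 compared groups alone 1 was left.

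The largest of these falls was in TC04002368.hg.1. Its JHOC9 signal was 4.41, 4.61 and 4.37 on the IL-6 KD arrays, against 5.72, 5.47, 5.32, 5.51 and 5.79 on the NT arrays, and 5.31, 4.99 and 5.02 on the SPINK1 KD arrays. The IL-6 KD arrays lay below all others of the line and below every array median over all clusters, where no background call is at hand. The difference was -1.10 ± 0.13 (SE, 3 against 5 arrays), with a limma adjusted p of 0.000299, and the call held in all 34 alternative settings. Some of these settings leave the difference itself unchanged, such as those without an array of another group. The next was TC05003257.hg.1, with 5.85, 6.02 and 5.67 on the JHOC9 IL-6 KD arrays against 6.48, 6.55, 6.75, 6.40 and 6.67 on the NT arrays. The groups did not overlap, as was required of the IL-6 KD calls named here. The limma adjusted p of 0.0433 for a difference of -0.72 ± 0.15 (SE) was close to the threshold. It reached 0.265 in the alternatives, 15 of 34 of which lost the call. With the SPINK1 virus this cluster differed from NT by -0.37 in JHOC9 and by -1.63 in JHOC5.

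**Figure D3:**
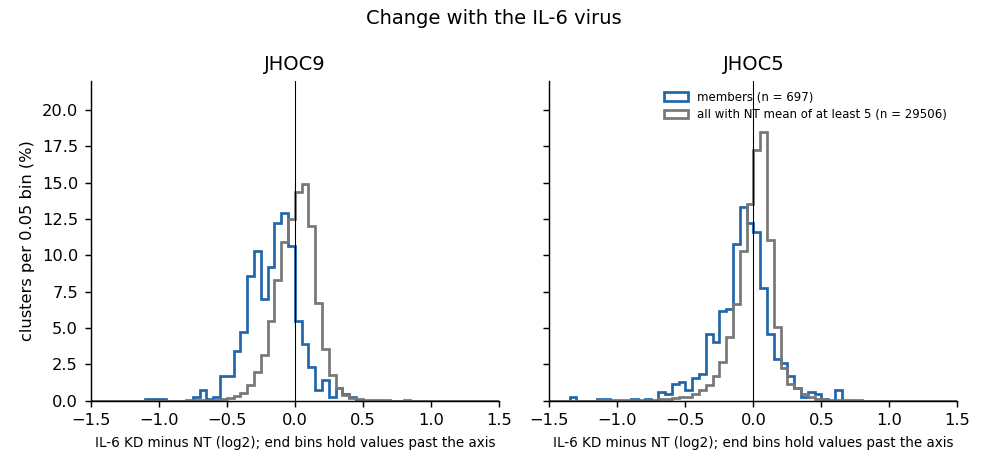
Share of clusters per bin of 0.05 (y axis, %) by IL-6 KD minus NT difference (x axis, log2) in JHOC9 (left) and JHOC5 (right), for the 697 members (blue) and all 29506 bright clusters (grey). The members' medians are -0.14 and -0.06, and the grey medians both 0.02; the NT arrays were used to choose the members.

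In JHOC5, 39 members were lower and 7 higher with the IL-6 virus by limma's test, 5.6% and 1% of the set, where 0.954% and 0.435% of all clusters and 1.79% and 0.796% of the bright clusters were called. The called differences ran from -1.34 to -0.25 and from 0.31 to 0.65. Before adjustment, limma's p was under 0.05 for 121 members lower and 30 higher, 21.7% of the set, against 9.16% of all and 13.3% of the bright clusters. Here too the NT arrays chose the members, which favours members lower, by an amount that was not tested. Without JHOC5 IL-6 KD replicate a the calls were 14 lower and 4 higher. With arrays centred on their median they were 25 and 2, and with array weights 71 and 29. Of the lower calls, 6 were shared by the lines, which is 6 of 10 in JHOC9 and 6 of 39 in JHOC5. The same count was not made over the bright clusters, so nothing is read from this overlap. No array enters both contrasts, but 1 spread per cluster serves both. Across the members the IL-6 differences of the lines had a Pearson's r of 0.295 and a Spearman's rho of 0.222, against an r of 0.351 across the bright clusters.

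TC09001223.hg.1 showed the largest JHOC5 fall with the IL-6 virus. Its signal was 6.53, 6.52 and 6.45 on the IL-6 KD arrays, against 7.74, 7.82, 7.73, 8.08 and 7.82 on the NT arrays, with 7.38, 7.03 and 6.91 on the SPINK1 KD arrays in between. The IL-6 KD arrays lay below every other JHOC5 array. The difference from NT was -1.34 ± 0.10 with the IL-6 virus (SE, limma adjusted p of 1.68e-07) and -0.73 with the SPINK1 virus. In JHOC9 the cluster had 5.97, 5.86 and 5.70 on the IL-6 KD arrays against 6.24 to 6.48 on the NT arrays, a difference of -0.53 ± 0.10 (SE) with a limma adjusted p of 0.0232. The IL-6 effect in JHOC9 minus that in JHOC5 was 0.81 ± 0.14 (SE), with a limma adjusted p of 0.0752.

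TC02000703.hg.1 was next, with 7.19, 7.54 and 7.48 on the JHOC5 IL-6 KD arrays against 8.58, 8.66, 8.69, 8.81 and 8.78 on the NT arrays. Its JHOC5 SPINK1 KD arrays read 7.74, 7.37 and 7.23, a range that overlaps that of the IL-6 KD arrays and lies below all NT arrays. The IL-6 KD difference was -0.61 ± 0.10 in JHOC9 and -1.30 ± 0.10 in JHOC5 (SE), with limma adjusted p of 0.0109 and 2.34e-07. The SPINK1 KD differences were -0.29 in JHOC9 and -1.26 in JHOC5.

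A few members went the other way with the IL-6 virus in JHOC5. The 7 called higher are 1% of the set, a share similar to the 0.796% of the bright clusters. TC17001745.hg.1 had 9.15, 9.16 and 9.17 on the IL-6 KD arrays, against 8.86, 8.57, 8.41, 8.40 and 8.32 on the NT arrays and 7.88, 7.49 and 7.25 on the SPINK1 KD arrays. The 3 groups were apart from each other, which the choice of named clusters required for IL-6 KD and NT. The IL-6 KD rise was 0.65 ± 0.11 (SE, limma adjusted p of 0.00295). In JHOC9 its IL-6 KD difference was 0.06 ± 0.11 (SE), with a limma adjusted p of 0.867. TC12001756.hg.1 had 8.80, 8.89 and 9.10 on the JHOC5 IL-6 KD arrays, against 8.33, 8.22, 8.43, 8.33 and 8.12 on the NT arrays and 7.66, 7.24 and 7.16 on the SPINK1 KD arrays. Here too the groups did not overlap, with the same requirement for IL-6 KD and NT. The rise of 0.65 ± 0.15 (SE, limma adjusted p of 0.0357) lost its call in 9 of 34 alternatives, with an adjusted p of up to 0.188.

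All IL-6 KD arrays lay below all NT arrays for 163 members in JHOC9 and 93 in JHOC5, against 4.86% and 5.64% of the bright clusters. They lay above for 0 and 34 members, against 3.28% and 4.89%. The 163 and 93 members are 23.4% and 13.3% of the set, and the 34 are 4.88%. The NT arrays also chose the members, which favours counts below NT over counts above. The size of this part was not tested. The IL-6 effect itself was not shown to differ between the lines for any member. Its interaction term in limma called 0 of 697, beside 0.00153% of all clusters in each direction. Before adjustment, limma's p was under 0.05 for 90 members with a negative term and 27 with a positive one. These 117 are 16.8% of the members, against 6.67% of all clusters, and the share of bright clusters is not given here. The NT arrays of both lines enter this term and also chose the members, so nothing is read from these counts. The count of 0 calls became 1 without JHOC5 SPINK1 KD replicate c or JHOC5 IL-6 KD replicate a, and 16 with array weights.

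The line difference on the IL-6 KD arrays compares 2 group means that the choice of the members did not use, while its limma test takes the spread from all 22 arrays. On these arrays many members had lower signal in JHOC9 than in JHOC5. The members' median JHOC9 minus JHOC5 difference was -0.31 on the log2 scale, against 0.10 for the bright clusters and 0.08 for all clusters. By limma's test at an adjusted p of 0.05, 342 members were lower in JHOC9 and 113 higher, where 11.1% and 14.2% of all clusters were called. As shares, 49.1% of the members and 18.2% of the bright clusters were lower, while 16.2% and 19.8% were higher. With a difference of at least 2-fold as well, 137 members were lower and 19 higher, which is 19.7% and 2.73%, against 3.35% and 2.89% of the bright clusters. With the spread from these 2 groups alone, 304 were lower and 90 higher. The total of 455 calls ran from 308 to 503 over the 34 alternatives and from 409 to 462 with single arrays left out.

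**Figure D4:**
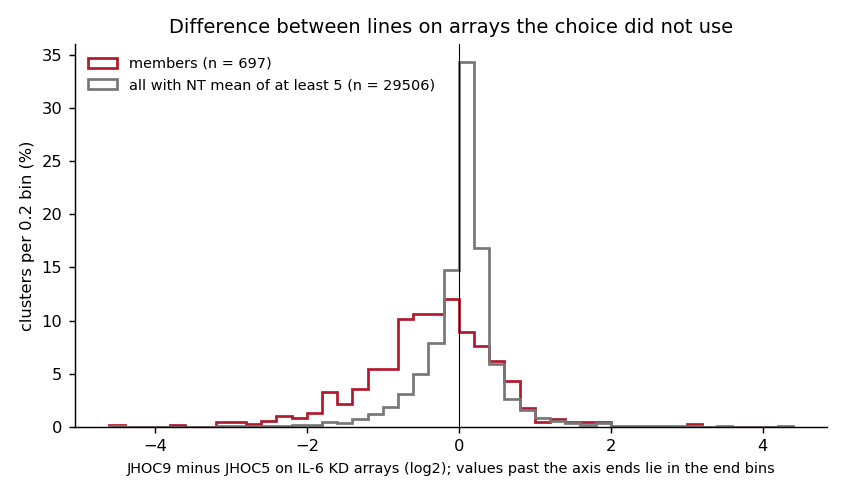
Share of clusters per bin of 0.2 (y axis, %) by JHOC9 minus JHOC5 difference on the IL-6 KD arrays (x axis, log2), for the 697 members (red) and all 29506 bright clusters (grey). The red outline is shifted to negative values, with a median of -0.31 against 0.10 for the grey one, and 137 members lie at or below -1.

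The excess of members lower in JHOC9 was present at each signal level. Among clusters with an average NT mean between 5 and 6, 36.1% of the members were called lower in JHOC9, against 7.76% of all bright clusters of that level. Between 7 and 8 the shares were 51.0% and 28.1%, and above 10 they were 76.2% and 21.2%.

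The clusters furthest apart between the lines differed in both directions. TC20001408.hg.1 had 5.27, 5.55 and 5.08 on the JHOC9 IL-6 KD arrays, against 9.80, 9.71 and 9.87 on the JHOC5 ones, a difference of -4.49 ± 0.26 (SE, limma adjusted p of 1.89e-11). TC03001887.hg.1 had 5.0, 5.16 and 5.25 in JHOC9 against 8.66, 8.68 and 8.89 in JHOC5, a difference of -3.61 ± 0.11 (SE, limma adjusted p of 4.00e-16). Both were dim in JHOC9 and among the brighter clusters in JHOC5. With the SPINK1 virus TC03001887.hg.1 read 7.37, 7.07 and 7.06 in JHOC5, against 8.79 to 9.05 on the NT arrays, a difference of -1.78. In JHOC9, near the NT minimum of 5, it read 4.80, 4.90 and 4.66 against 4.87 to 5.28, a difference of -0.27 with overlapping groups. TC20001408.hg.1 overlapped its NT arrays with the SPINK1 virus in both lines. It read 6.17, 5.90 and 5.54 against 5.84 to 6.60 in JHOC9. In JHOC5 it read 10.16, 9.64 and 8.81 against 9.77 to 10.31.

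In the opposite direction TC10001517.hg.1 had 10.74, 10.55 and 10.88 on the JHOC9 IL-6 KD arrays, against 7.33, 7.06 and 8.20 on the JHOC5 ones. The difference was 3.19 ± 0.35 (SE, limma adjusted p of 3.02e-07). TC04000588.hg.1 had 7.90, 7.64 and 7.64 in JHOC9 against 4.50, 4.69 and 4.82 in JHOC5, a difference of 3.06 ± 0.25 (SE, limma adjusted p of 3.57e-09). Its JHOC5 values lay at or below most array medians over all clusters, so with no background call in the files the size of its difference is uncertain. All 4 calls held in the 34 alternatives.

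Among the members, the SPINK1 KD difference in JHOC5 was described by class of line difference on the IL-6 KD arrays. The SPINK1 KD differences chose the members, so these values carry no test. Members at least 1 log2 unit lower in JHOC9 had a median SPINK1 KD difference of -0.30 in JHOC9 and -1.08 in JHOC5. Members at least 1 log2 unit higher in JHOC9, 19 in number, had -0.32 in JHOC9 and -0.46 in JHOC5. As a fraction of the JHOC5 difference, the JHOC9 difference had a median of 0.259 in the first of these classes and 0.595 in the last. The JHOC9 differences lay close to the limit of -0.2 in both classes, so this fraction mainly follows JHOC5. Members made up 13.9% of the 988 bright clusters at least 1 log2 unit lower in JHOC9, 0.867% of those between 0 and 0.5 and 2.21% of the 858 at least 1 unit higher. The members' median line difference was 0.23 on the SPINK1 KD arrays and -0.22 on the NT arrays, both of which chose the members.

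The characters after TC in an ID give the array maker's chromosome code, and no gene or coordinate was attached to it here. Members came from codes 1 to 22 and X. Code 1 held the most, 96 of its 2986 bright clusters. By share, code 13 had 5.02% (25 of 498), code 4 had 4.26% (40 of 939) and code 6 had 3.53% (55 of 1559), against 2.36% over all codes. Among the numbered codes the lowest shares were 0.254% for code 21 (1 of 394), 0.64% for code 22 (4 of 625) and 1.08% for code 16 (15 of 1393). Of the bright clusters of codes 13 and 4, 0.803% and 1.28% were higher by 0.2 in both lines, against 1.44% over all codes. Low shares of this kind were not particular to codes rich in members. Codes 6, 21, 22 and 16 had 1.15%, 1.02%, 1.28% and 1.08%, and code 1 had 1.74%. None of the 114 bright clusters of code Y or the 22 of code M was a member. The NT minimum of 5 lies close to the array medians of 4.78 to 4.95. Passing it does not by itself show that a cluster is expressed.

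**Figure D5:**
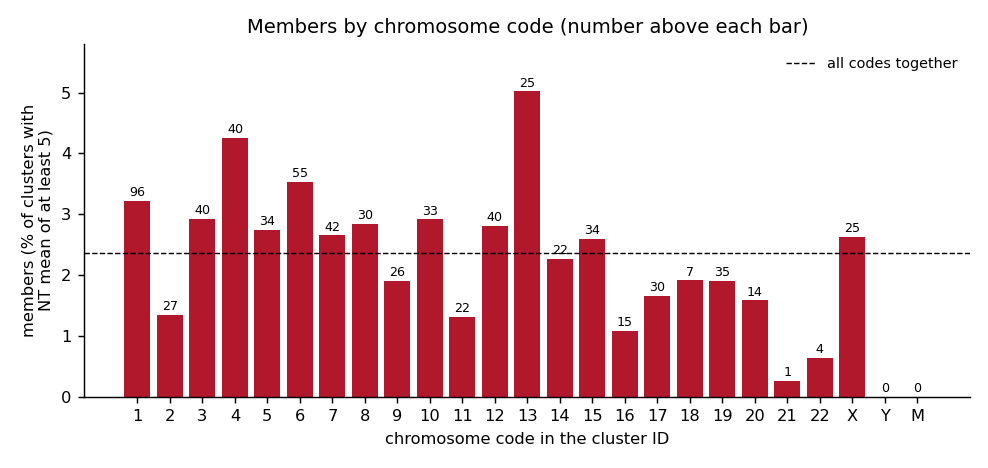
Members as a share of the bright clusters of each chromosome code (y axis, %; x axis, code), with the number of members above each bar and a dashed line at the share of all codes together. Codes 13 and 4 reach 5.02% and 4.26%, and codes 21 and 22 lie lowest among the numbered codes.

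The size of the difference varied among codes more in JHOC5 than in JHOC9. The members' JHOC9 differences lay close to the limit of -0.2, with an interquartile range of -0.35 to -0.24, which left their medians little room to vary. Among codes with at least 25 members, the JHOC5 median ran from -0.93 for code 10 and -0.92 for code 6 to -0.50 for code 7 and -0.47 for code 19. In JHOC9 it ran only from -0.35 for code 15 to -0.26 for code 19. On the IL-6 KD arrays the median JHOC9 minus JHOC5 difference of the members was 0.48 for code 19, while it was -0.67 for code 6 and -0.65 for code 12. The line difference of the other bright clusters of these codes is not given here. Whether these values are particular to the members was not tested.

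Some members sat next to each other by ID number. In all, 62 members, or 8.90%, had another member at the next number of the same code, against 2.13% of the other bright clusters with a member there. They formed 29 runs of consecutive numbers, none longer than 3. Within 5 numbers it was 142 members, or 20.4%, against 9.29%. These shares are a description with no test. Of the 4 runs of 3, 3 had code 6 and 1 had code 12. The median SPINK1 KD difference in JHOC5 was -0.98, -1.37 and -1.11 in the code 6 runs and -0.93 in the code 12 run, which includes TC12001756.hg.1. By values alike on all arrays within 1e-05, 6 members repeated another member, so 691 were distinct.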

How the data were processed

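Total RNA (200 ng per array) was measured on Human Transcriptome Array 2.0 GeneChips, per the labels. The submitters' processing notes name RMA with no version, a method of background correction, between-array normalization and probe summary. Its software and genome build are not stated in the labels or headers. The deposited intensity values, called raw in the file header, are linear values per cluster from 2.81 to 15242. The deposited log2 values equal log2 of that intensity minus the cluster's median over the 22 arrays, within 2.06e-06. The number of arrays limits the precision.

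Groups came from the sample titles. Log2 intensity was fitted in limma 3.58.1 (R 4.3.3) with 1 model of 6 group means and eBayes. Tests were two-sided with Benjamini-Hochberg adjustment over 65526 clusters, and the threshold was an adjusted p of 0.05. The procedure was tested on simulated data. Figures used matplotlib 3.10.9 and pandas 2.3.3 under Python 3.11.15.

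The members, lists and tests were chosen with earlier results of these data known. Named clusters were the 2 members with the largest mean SPINK1 KD difference and the member with the largest excess in each line. To these were added, per line, up to 2 falls and 2 rises among IL-6 KD calls with separated groups, and the 2 largest line differences each way. Gene lists and markers in the plan needed gene names and were not analysed here.

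Same-lettered SPINK1 KD and NT arrays in JHOC9 deviated together from their group means, with correlations of 0.43, 0.32 and 0.20, although SPINK1 KD replicate c matched NT replicate d better, at 0.435. All were over 0.1, which met the criterion for pairing, but the counts reported above are from the model of group means without the block, which was run as an alternative. In each other comparison 1 pair fell under 0.1. Alternatives covered normalization, the replicate block, single arrays left out, filters, thresholds, the variance model, array weights and the series matrix values. The last differ from log2 intensity by a constant per cluster, so they could not change a contrast beyond rounding. Leaving out an array outside the compared groups could change only the spread and the adjustment.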

Additional observations from a re-analysis of the deposited data

Results flagged for a closer look

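Single NT arrays stood apart from the other 4 of their group by Dixon's criterion in 4 of the 30 value groups tested, and chance marks about 1 in 20. The members' median log2 level was 7.07 on JHOC9 NT replicate d, against 7.17 to 7.19 on the other JHOC9 NT arrays. TC09001223.hg.1 was 8.08 on JHOC5 NT replicate d, against 7.73 to 7.82 on the others. TC20001408.hg.1 was 9.77 on JHOC5 NT replicate e, against 10.18 to 10.31. TC04000588.hg.1 was 4.81 on JHOC5 NT replicate a, against 5.38 to 5.54. Over all members, 5.17% had an outlying JHOC9 NT array and 4.16% an outlying JHOC5 NT array, against 5.77% and 4.89% of the bright clusters. Without JHOC9 NT replicate d the rule gave 789 clusters, 673 of them among the 697.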

How the results depend on the processing

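The count of 697 was 1145, 452 and 41 with limits of 0.15, 0.25 and 0.5 on the difference, and 622 to 835 with single arrays left out. Arrays centred on their median gave 636 clusters, 602 of them among the 697. Quantile normalization gave 696 and cyclic loess 689, with 656 and 659 among the 697. Medians of arrays in place of means gave 780, of which only 548 were among the 697. With the replicate block the count was 762, of which 589 were among the 697. The 10 JHOC9 IL-6 KD calls became 28 with the replicate block, 1 with only the compared groups, 20 with clusters of mean 5 or more, 3 at an adjusted p of 0.01 and 6 with a 1.5-fold change, and 2 to 22 with single arrays left out. The 46 JHOC5 IL-6 KD calls became 27 with arrays centred on their median, 30 with only the compared groups, 100 with array weights, 22 at an adjusted p of 0.01 and 17 with a 1.5-fold change, and 18 to 49 with single arrays left out. The interaction count of 0 became 1 with the replicate block or the mean filter, 16 with array weights, and 0 to 1 with single arrays left out. The causes were not tested. The line difference on the IL-6 KD arrays gave 308 to 503 calls, 370 with the block. With the block, 8 of the 10, 35 of the 46 and 352 of the 455 calls remained. For the IL-6 KD arrays pairing is unsettled: same-lettered arrays correlated at 0.31 and 0.48 in JHOC9 and 0.52 and 0.40 in JHOC5, but the third pair at -0.04 and -0.0016. Values rest on 3 or 5 arrays a group and 1 virus per target, so effects of a virus and of its target cannot be told apart. RMA sets all arrays to a like distribution, so an overall shift in RNA would not show.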
